A study of Mus musculus with 9 samples.

Results

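From the cluster of miR-191 and miR-425, mmu-miR-191-5p, mmu-miR-425-5p and mmu-miR-425-3p (here without the mouse prefix) were taken as the 3 members. The count table held 817 mature miRNAs. The members were listed by name rather than by a cut on measured values, though with earlier results of these data known. The opposite arm of the first hairpin, miR-191-3p, was also in the count table and was followed as a cluster mate. The question was how abundant these cluster mates were, which arm of miR-425 prevailed, and how their 3′ uridylation compared between cells with and without Tut4 and Tut7.

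The data were sRNA-seq of mouse Meis1/Hoxa9 preleukemic cells, in 5 Tut4/7 CTL libraries and 4 Tut4/7 cKO libraries. The cells were c-Kit-enriched fetal liver cells that had been transduced with retroviruses carrying Meis1 and Hoxa9 and then grown with Stem Cell Factor, IL-6 and IL-3. Both groups carried floxed alleles of both genes (Tut4 fl/fl; Tut7 fl/fl), and the cKO cells also carried Vav-iCre, which is active in hematopoietic cells, so that the controls (labelled WT) were floxed littermate cells without Cre. The study's general methods describe replicates as coming from separate animals or embryos, while the labels do not link single libraries to embryos. sRNA-seq does not read the Tut4 and Tut7 mRNAs, and the genotype labels therefore had no direct check here.

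A microRNA is cut from a hairpin by Drosha and Dicer, and either strand of the resulting duplex, the 5p or the 3p arm, can be loaded into Argonaute to repress matching mRNAs. TUT4 and TUT7 are terminal uridylyl transferases that add uridines to the 3′ ends of RNAs, including precursor and mature miRNAs. miR-191-5p is abundant in many cell types and is often used as a reference RNA in quantitative PCR, and miR-425 is produced from the same primary transcript.

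The mature sequences are shown because their seeds and 3′ ends set what was counted. They are given 5′ to 3′ from RefSeq (GRCm38.p6), with the seed (bases 2 to 8) in capitals.
miR-191-5p: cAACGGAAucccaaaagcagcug
miR-191-3p: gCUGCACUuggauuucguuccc
miR-425-5p: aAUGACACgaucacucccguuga
miR-425-3p: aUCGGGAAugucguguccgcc
The seeds of the 3 members differed from each other. Of the 817 listed miRNAs, 707 had a RefSeq mature sequence to compare, and 0 others among these shared a seed with a member. The hairpins follow with both mature arms in capitals, to show where each arm and each 3′ end lies.
Mir191: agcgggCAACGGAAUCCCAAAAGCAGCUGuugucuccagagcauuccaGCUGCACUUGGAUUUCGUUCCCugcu
Mir425: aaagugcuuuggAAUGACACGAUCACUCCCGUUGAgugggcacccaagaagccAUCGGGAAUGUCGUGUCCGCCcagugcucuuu

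In GRCm39 both hairpins lay on the plus strand of chromosome 9, Mir191 at 108445518 to 108445591 and Mir425 at 108445976 to 108446060, with 384 bases between them. Both lay within the long non-coding RNA gene 4833445I07Rik (108444626 to 108446855), which had 10 annotated transcripts. Mir191 was exonic in 2 and intronic in 8 of them, and Mir425 was exonic in 5 and intronic in 5. No further miRNA gene was annotated on that strand within 10 kb, while the antisense miRNA gene Gm55600 (108445494 to 108445613) covered Mir191 on the minus strand. The gene Dalrd3 began 1017 bases after the end of Mir425. Each mature sequence had 1 exact match in the genome. The genome continued with TTGT after miR-191-5p, with GTGG after miR-425-5p and with CAGT after miR-425-3p. The first 2 Ts counted as added to miR-191-5p therefore also matched the genome, whereas a T after either arm of miR-425 did not.

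The libraries held 175462 to 479342 miRNA reads each, 209702 to 316620 in Tut4/7 CTL and 175462 to 479342 in Tut4/7 cKO. All 5 hematopoietic marker miRNAs (miR-223-3p, miR-142a-3p, miR-142a-5p, miR-155-5p and miR-146a-5p) were read, with summed levels of 7509 to 15555 RPM (reads per 1000000 miRNA reads) in Tut4/7 CTL and 4858 to 21294 in Tut4/7 cKO. The hepatocyte miRNA miR-122-5p, 1 of 2 markers of the main other cell type of fetal liver, was at 529 to 1346 and 581 to 1425 RPM. The lymphocyte marker miR-150-5p was at 4.77 to 62.3 and 39.0 to 265, and its part in any result was not tested. Endothelial markers summed to 124 to 202 and 68.4 to 227 RPM, and the erythroid, fibroblast and smooth muscle, striated muscle and neuron lists each to at most 28.4 RPM. The count table held only 1 of 3 erythroid, 1 of 3 striated muscle and 1 of 2 neuron markers. CTL replicate 2 stood apart for the uridylation of miR-191-5p, whose group means are given with and without that library. Its uridylated share over all miRNAs, 10.8%, was the lowest of the controls (14.4% to 24.8% in the other 4) and lay within the 7.55% to 19.3% of the Tut4/7 cKO libraries. This library was singled out on its values. A Dixon outlier check of 34 sets of values, among them the miR-191-5p uridylated share of the controls, marked 0.

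miR-191-5p was one of the dominant miRNAs of these cells, while both arms of miR-425 were minor. Abundance is given as CPM, counts per 1000000 reads scaled by the trimmed mean of M-values (TMM), and no length scaling was applied. The libraries were amplified by PCR, and copies of a molecule could not be told from separate molecules. The 5 Tut4/7 CTL libraries had 65285, 62424, 60119, 56568 and 65282 CPM of miR-191-5p, and the 4 Tut4/7 cKO libraries had 46393, 65891, 59226 and 46772. The cKO libraries held both the highest and the lowest value, so the groups overlapped. In edgeR's quasi-likelihood test across 205 miRNAs the log2 fold change of miR-191-5p was -0.18 (SE 0.16, adjusted p = 0.645).

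For miR-425-5p, the major arm of the second hairpin, the Tut4/7 CTL libraries had 1054, 621, 606, 973 and 522 CPM and the Tut4/7 cKO libraries 615, 671, 778 and 1391. The highest value was in cKO replicate 4 and the lowest in CTL replicate 5, and the groups overlapped. Its log2 fold change in edgeR's quasi-likelihood test was 0.20 (SE 0.37, adjusted p = 0.826). The opposite arm, miR-425-3p, had 179, 64.0, 150, 87.2 and 56.4 CPM in Tut4/7 CTL and 47.8, 103, 95.9 and 85.5 in Tut4/7 cKO. Again the groups overlapped, with CTL replicates 1 and 3 above the other libraries. The log2 fold change was -0.34 (SE 0.42, adjusted p = 0.749 in edgeR's quasi-likelihood test).

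None of the 3 members passed the abundance test in edgeR, beside 0.488% of the 205 miRNAs tested that were called. At an unadjusted p under 0.05 the number of members was also 0, and DESeq2 called 0 of them. miR-191-3p, the minor arm of the first hairpin, was at 153 ± 53.7 (SD, n = 5) and 168 ± 56.1 (SD, n = 4) CPM and did not pass either (log2 fold change 0.15, SE 0.35, adjusted p = 0.863 in edgeR's quasi-likelihood test). In these bulk samples, fewer cells that express a miRNA and less of it per cell cannot be told apart.

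**Figure D1:**
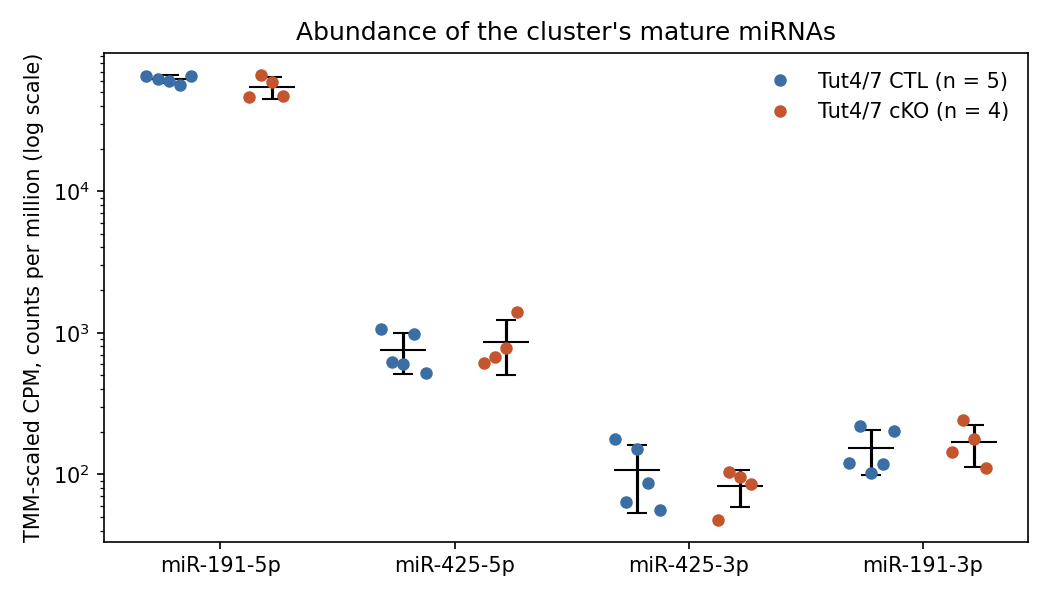
TMM-scaled CPM (log axis) of the 3 members and of miR-191-3p in 5 Tut4/7 CTL libraries (blue) and 4 Tut4/7 cKO libraries (orange), each point 1 library and bars the mean ± SD. The groups overlapped for each miRNA, and miR-191-5p, at 61936 and 54571 on average, stood far above the other 3.

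The abundance difference of miR-191-5p in an unadjusted permutation test depended on what it was scaled by. As a share of all miRNA reads it took 6.97%, 6.85%, 6.46%, 6.11% and 6.02% of the Tut4/7 CTL libraries and 3.87%, 6.24%, 5.41% and 5.17% of the Tut4/7 cKO libraries. Of the cKO libraries, replicate 2 alone lay inside the control range and the other 3 were below it. The log2 share differed by -0.34 (exact permutation test, two-sided, p = 0.0476, chosen after seeing the data), against -0.20 and p = 0.190 for the TMM-scaled values in the same test. The median difference over all 205 miRNAs also shifted by -0.15 on the log2 scale from TMM scaling to shares of reads. The permutation p-values are not adjusted over miRNAs.

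In mean abundance over the 9 libraries miR-191-5p ranked 4 of 205 tested miRNAs, between let-7a-5p (63104 CPM) and miR-423-3p (51197). miR-425-5p ranked 75, between miR-30b-3p (832) and miR-330-5p (801). miR-191-3p ranked 123, between miR-361-5p (168) and miR-107-3p (159), and miR-425-3p ranked 147, between miR-690 (102) and miR-142a-3p (95.9). The neighbours of miR-425-5p, miR-425-3p and miR-191-3p differed from them by less than the SD between libraries. Of the 4 arms of the cluster, the order miR-191-5p above miR-425-5p above both 3p arms held in each of the 9 libraries. The 3p arms themselves changed places, miR-425-3p being the higher in CTL replicates 1 and 3 and miR-191-3p in the other 7 libraries.

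miR-191-5p outnumbered its cluster mate miR-425-5p in every library, by 61.9, 100.4, 99.2, 58.1 and 125 reads per miR-425-5p read in Tut4/7 CTL and by 75.5, 98.2, 76.1 and 33.6 in Tut4/7 cKO. The ratio spanned 3.72-fold across libraries, and only cKO replicate 4 lay outside the control range. The group difference in log2 ratio was -0.37 (exact permutation test, two-sided, p = 0.365), and without cKO replicate 4 it was -0.04.

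The 5p arm was the major arm of both hairpins. There were 5.90, 9.71, 4.04, 11.2 and 9.27 miR-425-5p reads per miR-425-3p read in Tut4/7 CTL and 12.9, 6.50, 8.12 and 16.3 in Tut4/7 cKO. cKO replicates 1 and 4 exceeded every control, while cKO replicates 2 and 3 lay among the controls. The difference in log2 arm ratio was 0.45 (exact permutation test, two-sided, p = 0.317). In edgeR's quasi-likelihood test of arm by genotype over 46 hairpins, in which 2.17% were called, the miR-425 arms differed by 0.44 (SE 0.49, adjusted p = 0.805) and the miR-191 arms by -0.34 (SE 0.36, adjusted p = 0.779). The bias was larger in the miR-191 hairpin, with 442 ± 132 (SD, n = 5) miR-191-5p reads per miR-191-3p read in the controls against 338 ± 62.5 (SD, n = 4) in the cKO libraries.

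**Figure D2:**
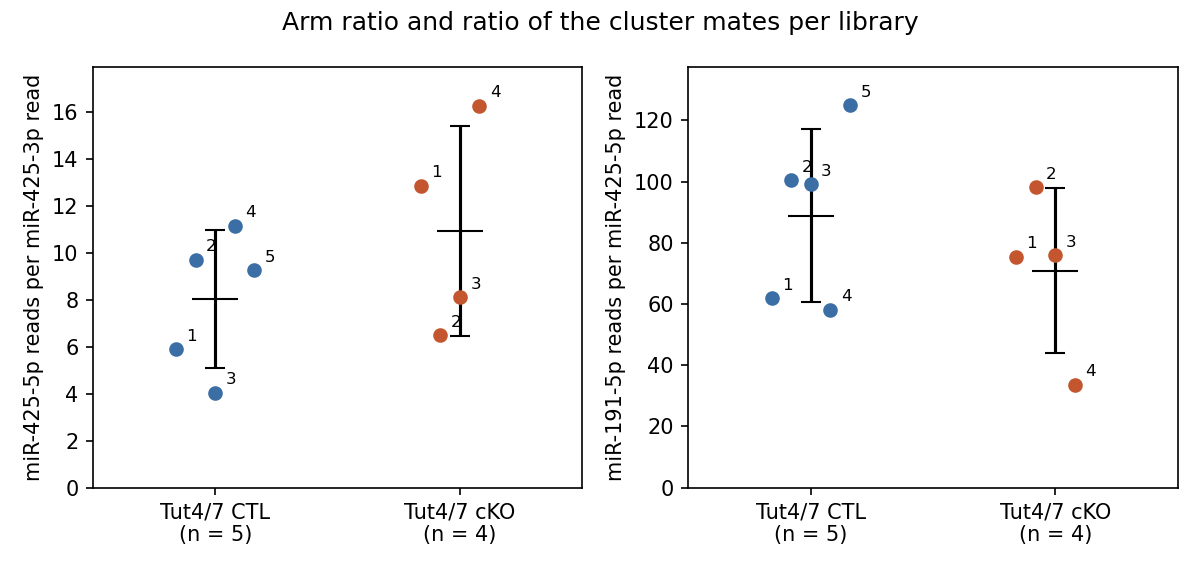
Reads of miR-425-5p per read of miR-425-3p (left) and of miR-191-5p per read of miR-425-5p (right), each point 1 library with its replicate number and bars the mean ± SD of 5 Tut4/7 CTL and 4 Tut4/7 cKO libraries. The arm ratio averaged 8.01 and 10.9 and the ratio of the cluster mates 88.9 and 70.8, with overlapping groups in both panels.

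The levels of the members were also compared over the 9 libraries. Pearson's r of log2(CPM + 1) was -0.38 between miR-191-5p and miR-425-5p, 0.41 between miR-191-5p and miR-425-3p, 0.39 between the miR-425 arms and 0.48 between the miR-191 arms. After subtraction of the group means these values were -0.33, 0.34, 0.46 and 0.69. The miRNAs most like miR-191-5p were miR-6539 (r = 0.879), miR-148a-5p (0.807) and miR-27b-5p (0.755), and those most like miR-425-5p were miR-1839-5p (0.968), miR-29a-3p (0.944) and miR-23a-3p (0.885). For miR-425-3p they were let-7a-5p (0.777), miR-378a-3p (0.710) and miR-23b-3p (0.678). These values describe 9 libraries that share their scaling, and for each member they were picked as the highest among the miRNAs tested.

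Uridylation separated the cluster mates. miR-191-5p carried an added T in a few percent of control reads and almost none in Tut4/7 cKO, miR-425-3p carried one in 28.6% of control reads on average, and miR-425-5p carried almost none in either group. The forms that carry this result are printed as DNA reads with the added Ts in capitals.
miR-191-5p, no added T: caacggaatcccaaaagcagctg
miR-191-5p, 1 added T: caacggaatcccaaaagcagctgT
miR-191-5p, 2 added Ts: caacggaatcccaaaagcagctgTT
miR-425-3p, no added T: atcgggaatgtcgtgtccgcc
miR-425-3p, 1 added T: atcgggaatgtcgtgtccgccT
miR-425-5p, 1 added T: aatgacacgatcactcccgttgaT
The form of miR-191-5p with no added T had 53960 reads in the controls and 48435 in the cKO libraries, whereas the form with 1 added T had 2622 and 54. For miR-425-3p the form with no added T had 76 and 71 reads and the form with 1 added T had 31 and 18. Added Ts were counted only after the last base of the mature sequence, so a T added to a shortened end is not among them.

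In miR-191-5p, 4.75%, 0.428%, 3.17%, 4.65% and 3.56% of reads were uridylated in the 5 Tut4/7 CTL libraries, against 0.191%, 0.0495%, 0.0771% and 0.102% in the 4 Tut4/7 cKO libraries. Every control lay above every cKO library, although CTL replicate 2 lay far closer to the cKO libraries than the other 4 did. Its 95% Wilson interval, 0.340% to 0.540%, lay above that of the highest cKO library, cKO replicate 1 (0.112% to 0.327%). Such intervals cover counting error only. They take each read as a separate molecule, which could not be checked because the reads carried no molecular identifiers.

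The group means were 3.31% ± 1.75 (SD, n = 5) and 0.105% ± 0.0614 (SD, n = 4), and without CTL replicate 2 the control mean was 4.03% ± 0.790 (SD, n = 4). The exact two-sided permutation test of the share gave p = 0.0159, the smallest that 5 against 4 libraries can give, and p = 0.0286, again the smallest possible, without CTL replicate 2. In edgeR's quasi-likelihood test of read class by genotype, miR-191-5p fell by 4.93 on the log2 scale (SE 0.72, adjusted p = 5.488e-05). Over all reads of a group, 2784 of 85217 and 64 of 75588 were uridylated, a 38.6-fold lower share in Tut4/7 cKO (95% counting interval 30.1 to 50.2), or 46.7-fold (36.4 to 60.8) without CTL replicate 2.

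miR-425-3p had the highest uridylated share of the cluster. In Tut4/7 CTL 8 of 40, 4 of 17, 16 of 51, 7 of 25 and 6 of 15 reads were uridylated, and in Tut4/7 cKO 2 of 7, 11 of 38, 4 of 42 and 2 of 34. As shares these were 20.0%, 23.5%, 31.4%, 28.0% and 40.0%, then 28.6%, 28.9%, 9.52% and 5.88%. cKO replicates 3 and 4 lay below every control, and cKO replicates 1 and 2 lay within the control range.

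The means of miR-425-3p were 28.6% ± 7.71 (SD, n = 5) and 18.2% ± 12.2 (SD, n = 4). Its log2 difference in edgeR's quasi-likelihood test was -1.04 (SE 0.65, adjusted p = 0.179). The pooled counts, 41 of 148 and 19 of 121 reads, gave a 1.76-fold lower share in Tut4/7 cKO with a counting interval of 1.00 to 3.22. That interval covers pooled counting error and not the spread between libraries, which in the cKO group reached from 5.88% to 28.9%. A difference was therefore not called over these libraries.

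miR-425-5p was uridylated in 0.424%, 0.606%, 0%, 0.358% and 1.44% of its reads in Tut4/7 CTL and in 1.11%, 0%, 0.587% and 0.362% in Tut4/7 cKO. One library of each group had no uridylated read, and the groups overlapped over their whole range. These shares rested on 5 of 1025 and 5 of 1231 reads, a 1.20-fold difference with a counting interval of 0.276 to 5.22. The log2 difference was -0.25 (SE 0.96, adjusted p = 0.836 in edgeR's quasi-likelihood test), with a sign that depended on the library left out.

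**Figure D3:**
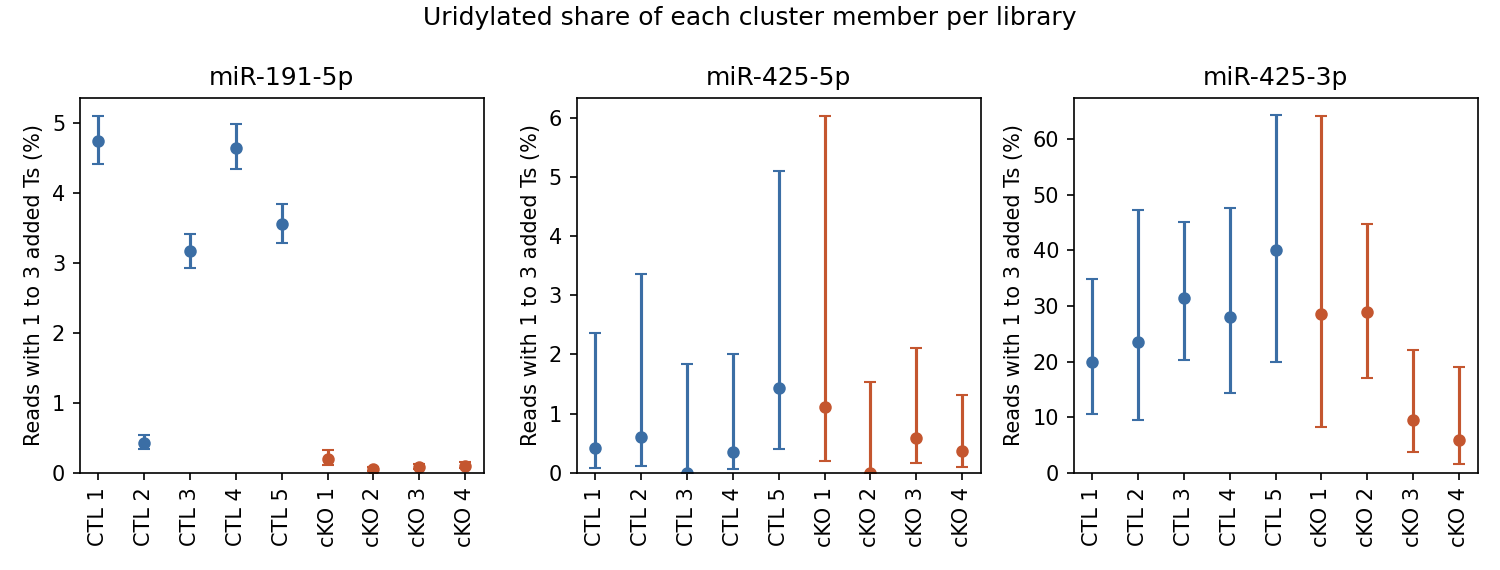
Percentage of reads with 1 to 3 added Ts for each member in 5 Tut4/7 CTL libraries (blue) and 4 Tut4/7 cKO libraries (orange), with 95% Wilson intervals and a separate linear axis for each panel. The miR-191-5p shares of Tut4/7 cKO, 0.0495% to 0.191%, lay below every control, while the shares of miR-425-5p and miR-425-3p overlapped between groups.

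Thus 1 of the 3 members passed the uridylation test, beside 59.4% of the 143 miRNAs tested that were called lower and 0% called higher. Entry required reads with added Ts in 3 control libraries, so miRNAs tailed mainly in Tut4/7 cKO could be left out. For reads with exactly 1 T, where entry was blind to genotype, 53.7% of 149 miRNAs were called lower and 0% higher. The log2 differences of all 143 had a median of -2.84. miR-191-5p ranked 22 from the most negative, miR-425-3p ranked 102 and miR-425-5p ranked 130. By mean uridylated share in the controls, miR-425-3p ranked 24, miR-191-5p 93 and miR-425-5p 137 of 143, and in Tut4/7 cKO they ranked 19, 103 and 68.

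The differences in the 2 members with the most uridylated reads were compared directly, in a test chosen after seeing the data. The log2 odds of a uridylated read changed by -4.78 from Tut4/7 CTL to Tut4/7 cKO in miR-191-5p and by -1.003 in miR-425-3p. The difference between these, -3.78, passed an exact two-sided permutation test over libraries (p = 0.0317), and without CTL replicate 2 it was -4.35 (p = 0.0286). It no longer passed without any one of CTL replicates 1, 3, 4 or 5 (exact permutation p = 0.0571) or cKO replicates 1, 2 or 3 (exact permutation p = 0.0714), at values of -3.13 to -3.95.

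Most added tails were a single T. Of the 2784 uridylated miR-191-5p reads of Tut4/7 CTL, 98.5% had 1 T, 38 reads had 2 Ts and 3 reads, all in CTL replicate 1, had 3. Of the 64 in Tut4/7 cKO, 63 had 1 T and 1 had 2 Ts. The reads with 2 Ts numbered 14, 0, 6, 11 and 7 in the control libraries and 0, 1, 0 and 0 in the cKO libraries. CTL replicate 2 again stood with the cKO libraries, having none.

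In edgeR's quasi-likelihood test miR-191-5p reads with exactly 1 T fell by 4.94 on the log2 scale (SE 0.72, adjusted p = 4.730e-05), where 53.7% of 149 miRNAs were called lower. Reads with exactly 2 Ts fell by 4.33 (SE 1.10, adjusted p = 0.000271 in edgeR's quasi-likelihood test), where 63.6% of 66 miRNAs were called. No member had enough reads with 3 Ts to enter that test, in which 77.1% of 35 miRNAs were called. With 0 such reads among 75588 of miR-191-5p in Tut4/7 cKO, a share of up to 0.00397% is allowed.

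For miR-425-3p the 1 read with 2 Ts and the 1 read with 3 Ts were both in CTL replicate 3. Its reads with exactly 1 T differed by -0.99 (SE 0.66, adjusted p = 0.215 in edgeR's quasi-likelihood test). miR-425-5p had no read with 2 or 3 Ts among 1025 in Tut4/7 CTL and 1231 in Tut4/7 cKO, which allows shares of up to 0.293% and 0.244%. Its reads with exactly 1 T differed by -0.25 (SE 0.96, adjusted p = 0.859 in edgeR's quasi-likelihood test). miR-191-3p had 4 uridylated reads of 208 and 1 of 232, each with 1 T, and differed by -1.71 (SE 1.28, adjusted p = 0.281 in edgeR's quasi-likelihood test).

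Because the genome has Ts directly after miR-191-5p, a single added T there could have been templated as far as its sequence shows. Counting only Ts beyond this genomic run left 3 reads, in 1 library, and no test could be made. For miR-425-3p and miR-425-5p this choice altered nothing, as neither is followed by a T. The share of miR-191-5p among all uridylated reads of a library averaged 1.26% ± 0.775 (SD, n = 5) over the controls against 0.0438% ± 0.0188 (SD, n = 4) over the cKO libraries, and 1.503% ± 0.630 (SD, n = 4) over the controls without replicate 2.

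The members differed in where their untailed reads ended. The most frequent form of miR-191-5p and of miR-425-3p was the full mature sequence, whereas that of miR-425-5p, aatgacacgatcactcccgttg with 963 reads, was 1 base shorter. Reads that ended before the last mature base made up 31.3% ± 2.57 (SD, n = 5) of miR-191-5p in the controls. The corresponding share in Tut4/7 cKO was 33.3% ± 5.24 (SD, n = 4). For miR-425-5p they made up 77.0% ± 4.40 and 83.7% ± 10.1, and for miR-425-3p 16.4% ± 5.14 and 22.6% ± 11.3, over the same libraries. cKO replicate 4 had the highest such share of all libraries for miR-191-5p and miR-425-3p, and cKO replicate 1 for miR-425-5p.

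In edgeR's quasi-likelihood test of reads ended early, in which 4.74% of 190 miRNAs were called, the log2 difference was 0.12 for miR-191-5p (SE 0.18, adjusted p = 0.805). It was 0.67 for miR-425-5p (SE 0.46, adjusted p = 0.475) and 0.58 for miR-425-3p (SE 0.50, adjusted p = 0.570) by edgeR's quasi-likelihood test, and none of the 3 members passed, also at an unadjusted p under 0.05. A short read of miR-191-5p that ends in the template's own T, 1 base before the end, cannot be told from one that lost more bases and gained a T. The same holds for miR-425-5p reads ending 2 or 3 bases before its end.

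Among reads that reached the mature end, the uridylated share of miR-191-5p averaged 4.79% ± 2.53 (SD, n = 5) over the controls against 0.157% ± 0.0853 (SD, n = 4) over the cKO libraries (exact permutation test, two-sided, p = 0.0159). The controls gave 6.88%, 0.649%, 4.70%, 6.82% and 4.88% and the cKO libraries 0.269%, 0.0699%, 0.119% and 0.170%, again without overlap. Without CTL replicate 2 the control mean was 5.82% ± 1.19 (SD, n = 4; exact permutation p = 0.0286). On this scale miR-425-3p was at 34.0% ± 8.15 (SD, n = 5) and 22.97% ± 14.7 (SD, n = 4), and its groups overlapped.

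**Figure D4:**
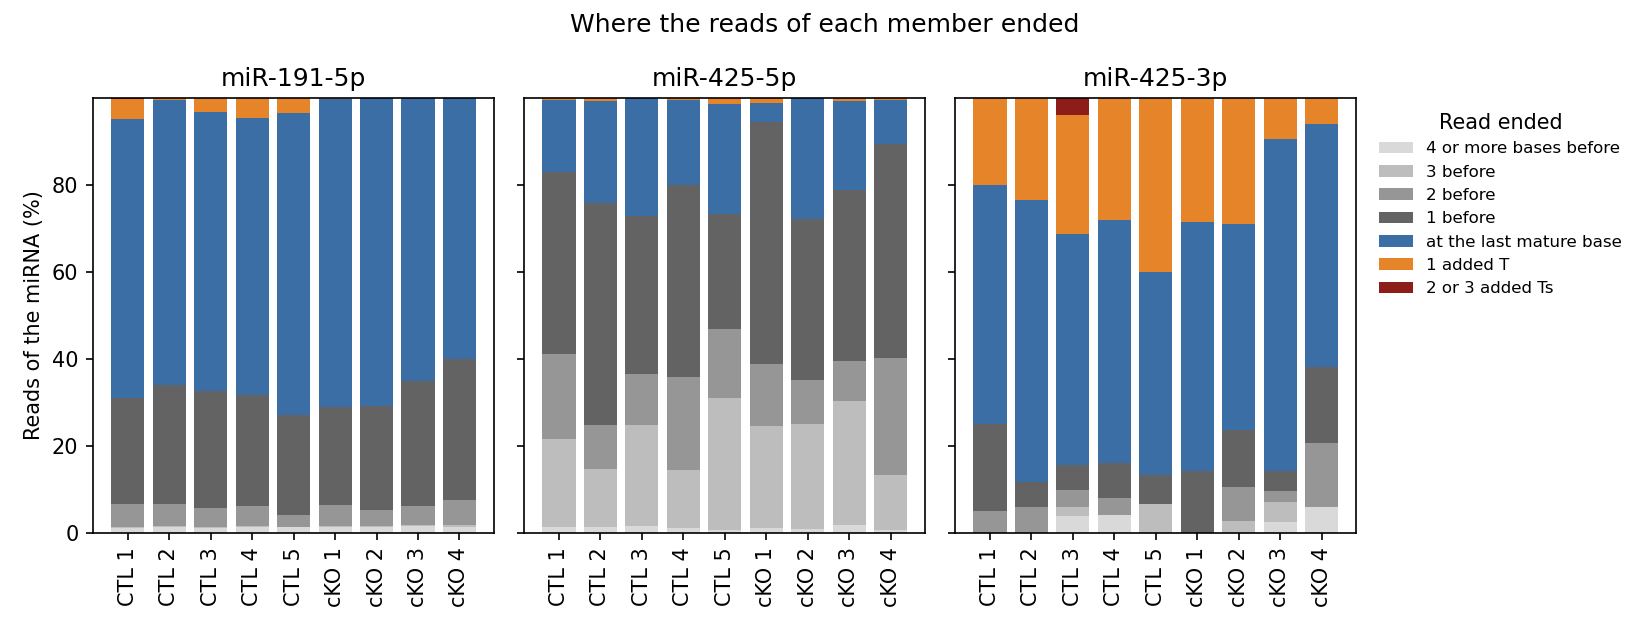
Stacked percentage of the reads of each member by 3′ end in each library, from 4 or more bases before the last mature base (light grey) through the last mature base (blue) to 1 added T (orange) and 2 or 3 added Ts (dark red). Reads ended early in 77.0% of miR-425-5p but 16.4% of miR-425-3p in Tut4/7 CTL, and the orange band of miR-191-5p was visible in the controls other than replicate 2 and in none of the cKO libraries.

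Reads that began at base 2 of the mature sequence, and so have a seed shifted by 1 base, made up 2.62% ± 0.237 (SD, n = 5) of miR-191-5p in control cells, against 2.40% ± 0.211 (SD, n = 4) in cKO cells. Of these shifted reads 5.22% ± 2.54 (SD, n = 5) were uridylated in the controls against 0.442% ± 0.218 (SD, n = 4) in the cKO libraries, beside 3.25% ± 1.73 and 0.0950% ± 0.0609 for reads with the usual start. The shifted shares rested on few uridylated reads, 26, 7, 29, 34 and 19 in the controls and 1, 1, 3 and 2 in the cKO libraries. The lowest control was CTL replicate 2 in both classes, at 1.69% and 0.396%, and both values lay above every cKO library. Without it the control means were 6.10% ± 1.86 for the shifted and 3.97% ± 0.770 for the usual start (SD, n = 4).

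miR-425-3p had 17.5%, 5.88%, 5.88%, 12% and 13.3% of its reads starting at base 2 in Tut4/7 CTL and 0%, 2.63%, 4.76% and 2.94% in Tut4/7 cKO. The groups did not overlap, though the counts were 16 of 148 and 4 of 121 reads. The exact two-sided permutation test gave p = 0.0159, and this relation was noticed in the data before it was tested. A quasi-likelihood test in edgeR set reads with any start other than base 1 against the rest, across 117 miRNAs, of which 0.855% were called. In that edgeR test miR-425-3p, whose reads with another start all began at base 2, did not pass (log2 difference -1.70, SE 0.70, adjusted p = 0.271). For miR-191-5p the same edgeR test gave -0.12 (SE 0.14, adjusted p = 0.753), and miR-425-5p had 0.229% and 0.192% of reads starting at base 2 on average.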

How the data were processed

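The deposited files held raw counts of reads for each mature miRNA and for each read sequence. Per the labels and the study's methods, the authors size-selected small RNA, made libraries with the NEBNext small RNA kit, trimmed adapters with cutadapt 5.0, and mapped reads with Bowtie 1.3.1, allowing no mismatch, to miRBase mature sequences extended by 3 Ts. The miRBase release is not given in the sources used here. A read with 1 to 3 Ts past the mature end was counted as uridylated. The table of counts equalled the summed read sequences in every cell.

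From these counts, edgeR 4.0.16 (R 4.3.3) fitted abundance with TMM scaling for miRNAs with at least 10 reads in 4 libraries, and read class by genotype with a term per library for miRNAs with at least 10 reads in 5 libraries. For uridylation, a read with added Ts was also required in 3 control libraries. p-values were adjusted by Benjamini-Hochberg over all miRNAs tested, at a threshold of 0.05. Single values were compared by exact permutation of libraries (SciPy 1.17.1). DESeq2 1.42.0 was one alternative. Another scaling, no filter on low counts, coverage minimums, other read classes, a replicate block and leaving out each library were also tried. On simulated counts, edgeR recovered 78.0% of 50 miRNAs changed by 2 on the log2 scale in abundance (205 miRNAs, 3 false calls) and 78.0% of 50 changed by 3 in uridylation (143 miRNAs, 2 false calls). The simulated spread of uridylation between libraries was a fixed setting and was not estimated from these data. That recovery therefore need not hold for the members.

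The members, marker list and tests were chosen with earlier results of these data known. Besides the members, the rule named miR-191-3p, miRNA genes within 10 kb, miRNAs of shared seed, the 3 miRNAs most correlated with each member and the neighbours in abundance. Sequences came from RefSeq (GRCm38.p6), and coordinates from GENCODE on GRCm39. None of the member reads matched another of the 707 listed miRNAs with a RefSeq mature sequence, extended by 3 Ts.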

Additional observations from a re-analysis of the deposited data

How the results depend on the processing

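Counting only Ts beyond the genomic run left too few miR-191-5p reads for a test. Under the 16 alternatives that could be run, the fall in miR-191-5p uridylation kept its direction and its call. Its log2 values were -5.49 to -4.64 when 1 library was left out. The miR-191-5p reads with 1 T (-5.50 to -4.62) and with 2 Ts (-5.59 to -3.91) also kept direction and call under the 11 alternatives run for each. For miR-425-3p uridylation stayed uncalled under all of its alternatives (-1.70 to -0.62 with 1 library left out), and it could not be tested at a minimum of 200 reads. Deviations of libraries with the same replicate number correlated at -0.20 to 0.43 for abundance and -0.054 to 0.085 for uridylation. Libraries of unlike number were not compared in this way, so whether the shared numbers pair the libraries was not tested. With the replicate block, miR-425-5p reversed in abundance (-0.057), uridylation (0.43) and reads with 1 T (0.43), the difference in log2 odds between miR-191-5p and miR-425-3p was -3.84 (exact p = 0.125, the smallest that 4 pairs allow), and the block changed no other call on a member. Other values of miR-425-5p uridylation that reversed were 0.027 for uridylated reads alone and 4.10 percentage points among reads that reached the mature end. None of these miR-425-5p values was called, and the cause was not tested. miR-191-5p abundance as a share of reads was -0.34 (exact permutation p = 0.0476, not adjusted over miRNAs). Its edgeR and DESeq2 alternatives gave adjusted p = 0.392 to 0.782.

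Leaving out 1 library gave -0.23 to 0.34 for miR-425-5p abundance, -0.56 to 0.26 for its uridylation and its reads with 1 T, -0.33 to -0.11 for miR-191-5p abundance and -0.63 to -0.09 for miR-425-3p abundance. It gave -0.020 to 0.22 for miR-191-5p reads ended early, 0.34 to 1.07 for miR-425-5p and 0.11 to 0.92 for miR-425-3p. The arm ratio was 0.22 to 0.67, the ratio of the cluster mates -0.56 to -0.04, and the difference in log2 odds -4.35 to -3.13. For miR-191-3p the values were -0.082 to 0.22 in abundance and -0.98 to 0.27 for reads ended early. For a start other than base 1 they were -0.23 to 0.84 for miR-425-5p, -0.17 to -0.09 for miR-191-5p and -2.02 to -1.36 for miR-425-3p. The reversed values among these were, without CTL replicate 5, -0.03 in abundance and 0.26 in uridylation and reads with 1 T of miR-425-5p, and without cKO replicate 2, 0.09 in its uridylation and reads with 1 T. Without cKO replicate 4 they were -0.23 in abundance of miR-425-5p and -0.020 in miR-191-5p reads ended early. For a start other than base 1 of miR-425-5p they were -0.04, -0.19, -0.04 and -0.23, the last without cKO replicate 4. For miR-191-3p they were -0.040 and -0.082 in abundance and 0.13 and 0.27 for reads ended early.

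Counts over all miRNAs moved more. In abundance 1 was called lower and 0 higher (31 at an unadjusted p under 0.05), against 5 and 6 by DESeq2, 8 and 10 without the filter on low counts, and 0 lower with the replicate block. Leaving out 1 library gave 0 to 1 in either direction. At 200 reads, 48 were called lower in uridylation and 46 in reads with 1 T, against 85 and 80, while leaving out 1 library gave 61 to 100 and 61 to 97, with 0 to 1 higher. Testing uridylated reads alone called 1 higher. Reads with 2 Ts gave 34 to 51 lower. Reads with 3 Ts gave 27 lower, 3 with the block and 9 to 31 with 1 library left out. Over hairpins, 1 arm ratio was lower, against 0 at 50 reads or with the block and 0 to 1 lower and 0 to 2 higher with 1 library left out. Reads ended early were called higher in 9, in 5 at 200 reads, in 3 with the block and in 2 to 11 with 1 library left out. Counting those at least 2 bases short called 0 higher and 1 lower. A start other than base 1 was called in 0 lower and 1 higher, 1 and 2 with the block, 3 and 2 at 200 reads, and 0 to 4 and 0 to 5 with 1 library left out. miR-425-3p had 7 to 51 reads per library, and the part of depth in its missing calls was not tested.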

Other observations

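One shortened form of miR-191-5p, singled out after its values were seen, had more reads than the forms 1 and 2 bases longer. The form of 18 bases, caacggaatcccaaaagc, ends 5 bases before the mature end and had 1967 reads, beside 402 for the form ending 3 bases before (caacggaatcccaaaagcag) and 67 for the form ending 4 bases before (caacggaatcccaaaagca). It had 164, 202, 234, 189 and 203 reads in the Tut4/7 CTL libraries and 93, 300, 376 and 206 in the Tut4/7 cKO libraries, 992 and 975 in total. It occurred in every library and was not tested between genotypes.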
